A study of Mus musculus with 60 samples.

Results

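Trem2, its adaptors Tyrobp and Hcst, and 6 genes of the signalling cascade below them (Syk, Plcg2, Inpp5d, Btk, Pik3cg and Card9) were followed in the hippocampus of App knock-in mice from weaning to adulthood. These 9 genes were taken by symbol from a table of 35976 gene symbols, and all 9 are in it. The selection rule is by name only, but the genes were chosen with earlier results of these data known. At week 24, 4 of the 8 genes with enough reads to test were higher in the knock-in, where 0.8% of 16508 genes were called higher. In order of change they were Trem2, Tyrobp, Pik3cg and Inpp5d, and the last 2 were not called in either sex alone. None of the 8 was called at week 3 or week 8, where 3.78% and 0.0% of all genes were called in either direction.

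Total RNA depleted of ribosomal RNA was sequenced from fresh frozen bulk hippocampus of 60 mouse samples. The 2 genotypes are wild type (WT) and AppNL-G-F (NLGF), a knock-in in which the mouse App gene carries mutations known from inherited Alzheimer's disease and is driven by its own promoter, with no transgene added. Samples were taken at week 3, 8 and 24, with 5 labelled female and 5 labelled male for each genotype and week, which gives 6 sets of 10. No group carries another allele or treatment per the labels, and no label states that samples are separate animals, so that part of the spread behind the p-values may be technical.

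TREM2 is a receptor on the surface of microglia, the resident macrophages of the brain, that binds lipids and lipoproteins. It has no signalling tail of its own and depends on the adaptor DAP12, the product of Tyrobp, whose activation motif recruits the kinase SYK once it is phosphorylated by kinases of the Src family. SYK in turn acts through phospholipase C gamma, phosphoinositide kinases, BTK and CARD9, while the phosphatase SHIP1, the product of Inpp5d, removes the lipid signal made by phosphoinositide kinases. TREM2 is known in this tissue for the response of microglia to amyloid plaques, and variants of several of these genes are associated with the risk of Alzheimer's disease in people.

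The sequences just upstream of RefSeq starts of the genes are shown because Trem2, Inpp5d and Pik3cg moved in the same direction at week 24 and Syk did not pass the test. Each is the 250 bases before the annotated start, 5′ to 3′ on the strand of the gene, from RefSeq on build GRCm38.p6, which shares its coordinates with mm10. Capitals mark AGGAAG or its reverse complement CTTCCT, a core of the kind bound by ETS factors such as PU.1, the lineage factor of microglia. The 4 windows lie at chr17:48346151-48346400 (Trem2, plus strand), chr1:87620062-87620311 (Inpp5d, plus strand), chr12:32208660-32208909 (Pik3cg, minus strand, the outer of 2 annotated starts) and chr13:52583187-52583436 (Syk, plus strand, the outer of 2 annotated starts).
Trem2: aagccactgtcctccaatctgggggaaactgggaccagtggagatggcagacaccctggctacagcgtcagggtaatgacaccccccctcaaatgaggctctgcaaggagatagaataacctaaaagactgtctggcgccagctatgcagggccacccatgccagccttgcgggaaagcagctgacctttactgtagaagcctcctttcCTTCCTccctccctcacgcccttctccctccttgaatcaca
Inpp5d: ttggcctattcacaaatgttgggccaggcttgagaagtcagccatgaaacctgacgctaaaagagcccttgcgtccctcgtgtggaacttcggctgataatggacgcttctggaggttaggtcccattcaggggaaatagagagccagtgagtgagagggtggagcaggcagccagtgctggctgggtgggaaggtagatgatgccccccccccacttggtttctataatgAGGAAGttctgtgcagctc
Pik3cg: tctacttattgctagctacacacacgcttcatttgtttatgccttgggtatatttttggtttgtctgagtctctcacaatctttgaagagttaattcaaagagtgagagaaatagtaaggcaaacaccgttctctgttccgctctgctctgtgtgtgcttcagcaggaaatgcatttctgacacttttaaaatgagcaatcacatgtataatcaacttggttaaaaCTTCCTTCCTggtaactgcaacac
Syk: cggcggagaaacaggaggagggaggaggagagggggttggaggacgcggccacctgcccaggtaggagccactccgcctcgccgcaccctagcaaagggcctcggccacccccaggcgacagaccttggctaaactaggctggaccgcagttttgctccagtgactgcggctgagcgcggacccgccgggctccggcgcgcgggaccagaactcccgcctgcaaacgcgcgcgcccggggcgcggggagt
The Trem2 window holds 1 match, which begins 41 bases before the start, and the Inpp5d window holds 1 match that begins 19 bases before it. The Pik3cg window holds 2 overlapping matches, and the Syk window holds none. By the GENCODE positions used for the genes below, Syk starts at 52583173, so its printed window lies inside the gene. The Syk window is thus upstream of its RefSeq start only, unlike those of Trem2, Inpp5d and Pik3cg. By GENCODE the Btk window also lies inside its gene. Of the 9 genes 8 matched an entry, all but Tyrobp, with 10 windows among them. Of these windows 6 held a match (those of Trem2, Hcst, Inpp5d and Card9 and both of Pik3cg, which overlap), against 29.5% of 32851 promoters of the same length. The E-box form CATGTG or CACATG, of the kind bound by MITF, was in 3 of the 10 windows (Hcst and both of Pik3cg), against 12.3% of promoters. Other E-box forms, such as CACGTG, were not counted. A match is a stretch of letters and does not show that a factor was bound.

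Library totals lay between 17.8 and 73.4 M counts (M, mega) with a median of 26.1 M, and they set the precision of the lower genes. The 7 deepest libraries (54.0 to 73.4 M) are all NLGF at week 3, so that depth and genotype cannot be told apart there except in the 3 NLGF libraries of usual depth. Levels are given in CPM, the usual counts per mega-read after TMM scaling of the library. In 1 library the sex label conflicted with its reads: NLGF W3 male 2 held Xist at 248 CPM and no read of the Y-linked Ddx3y, while the other 29 male libraries held Xist at 0 to 1.79 CPM and Ddx3y at 38.6 to 62.5 CPM. The library labelled NLGF W8 female 1 has another age in its age field (3 weeks) and was kept with week 8. Without either of these libraries the count of members called between the genotypes at its week was 0, as with it. Defining microglial genes were present in every set. The summed level of 8 microglial markers (Selplg, P2ry13, Gpr34, Laptm5, Irf8, Spi1, Tgfbr1 and Olfml3) was 122 ± 9.86 CPM in WT and 163 ± 10.8 CPM in NLGF at week 24 (SD, n = 10 each), without overlap (112 to 146 against 147 to 175 CPM), and 6 of the 8 passed the test on their own (edgeR, median log2 fold change 0.51).

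**Figure D1:**
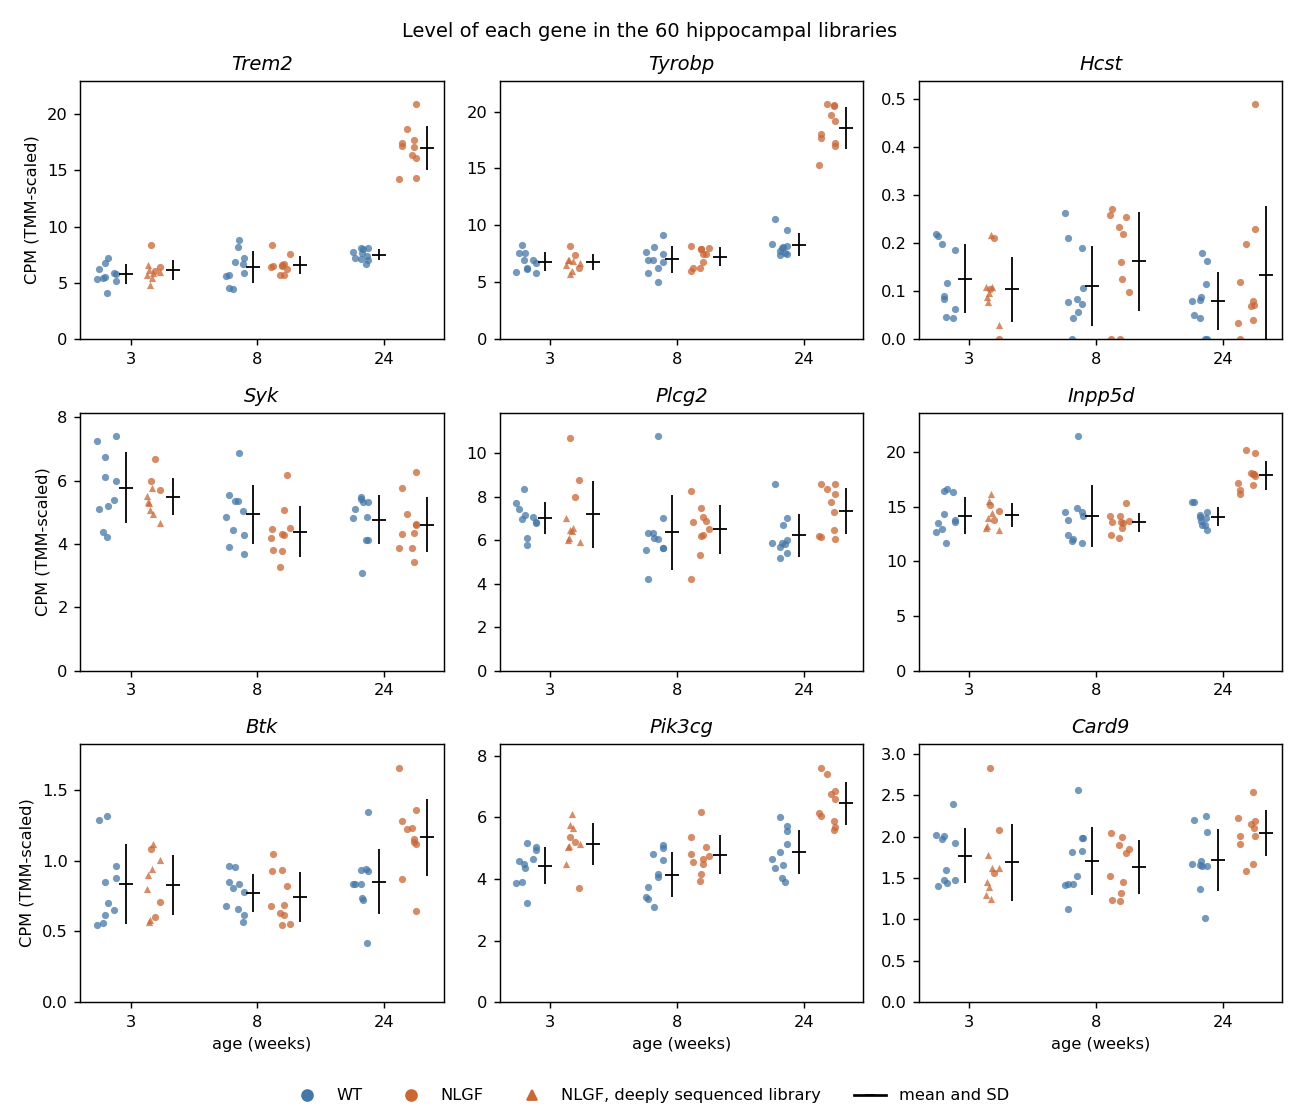
Level of each of the 9 genes in every library (points, CPM on a linear axis that starts at 0) by week and genotype, triangles for the 7 deep libraries, with the mean and SD of each set of 10. Trem2, Tyrobp and Inpp5d of the 10 NLGF libraries at week 24 lie above all 10 WT libraries of that week, while Syk and Card9 overlap at every week.

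Trem2, the lipid receptor (chr17:48346401-48354147 on mm10), ranged in WT from 4.05 to 7.24 CPM at week 3 (median 5.67), from 4.45 to 8.77 CPM at week 8 (median 6.30) and from 6.63 to 8.10 CPM at week 24 (median 7.52). In NLGF it ranged from 4.77 to 8.36 CPM at week 3 (median 6.02), from 5.73 to 8.34 CPM at week 8 (median 6.46) and from 14.2 to 20.9 CPM at week 24 (median 17.1). The genotypes overlapped at weeks 3 and 8 and were apart at week 24, where the lowest NLGF library stood well above the highest WT library. The week 24 fold of NLGF over WT was 2.26 (95% interval 2.07 to 2.47, higher in 10 of 10 libraries), a log2 fold change of 1.18 ± 0.0656 (SE, edgeR quasi-likelihood test, adjusted p = 1.82e-10). Here as for every gene below, more cells that express the gene and more RNA per cell cannot be told apart in bulk tissue.

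Tyrobp, the adaptor that carries the activation motif (chr7:30413760-30417585), ranged in WT from 5.83 to 8.23 CPM at week 3, from 5.03 to 9.18 CPM at week 8 and from 7.39 to 10.5 CPM at week 24, with medians of 6.84, 6.95 and 8.04 CPM. In NLGF the ranges were 5.69 to 8.15, 6.0 to 8.22 and 15.3 to 20.6 CPM, with medians of 6.79, 7.51 and 18.6 CPM. The sets overlapped at the 2 earlier weeks and not at week 24. The fold at week 24 was 2.24 (95% interval 2.04 to 2.46), a log2 fold change of 1.16 ± 0.0701 (SE, edgeR adjusted p = 5.88e-10). Across all 16508 genes tested at week 24, 132 were called higher, or 0.8%, and 51 genes, or 0.309%, had all 10 NLGF libraries above all 10 WT libraries.

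The reads of the receptor and of its adaptor stood in nearly the same proportion in both genotypes at week 24. Reads of Trem2 per read of Tyrobp in the same library were 0.917 ± 0.0824 in NLGF and 0.915 ± 0.110 in WT at week 24 (SD, n = 10 each). At week 8 the ratio was 0.927 ± 0.180 in NLGF and 0.944 ± 0.335 in WT. The wide WT spread includes female 1, in which the ratio was 1.74: that library had the highest Trem2 of its set and the lowest Tyrobp. The same library had the highest Inpp5d, Plcg2, Syk and Card9 of the 10 WT libraries at week 8, and it stayed in every fit.

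**Figure D2:**
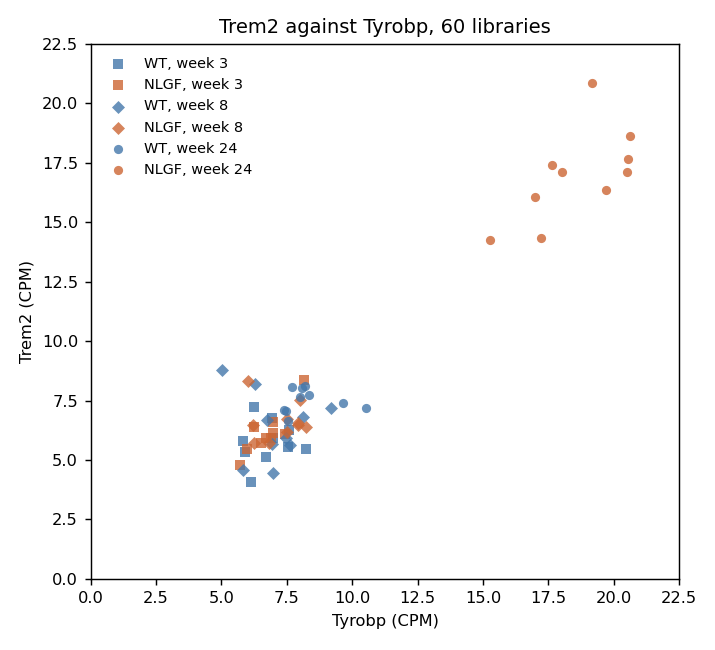
Trem2 (vertical axis, CPM) against Tyrobp (horizontal axis, CPM) in the 60 libraries, by week (symbol) and genotype (colour), both axes linear from 0. The 10 NLGF libraries at week 24 form a cloud of their own above 14 CPM on both axes, and the other 50 overlap between 4 and 11 CPM.

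Hcst, which encodes the DAP10 adaptor that couples receptors to phosphoinositide kinase (chr7:30417712-30419854), was close to the limit of counting. Its 10 libraries together held 37 reads in NLGF and 22 in WT at week 24, and single libraries ranged from 0 to 14 and from 0 to 6 reads. It did not pass the filter on low counts in any comparison, and without the filter its log2 fold change at week 24 was 0.56 ± 0.589 (SE, edgeR adjusted p = 0.788). A difference between the genotypes was not detectable at this depth. Hcst and Tyrobp are neighbours that converge with their 3′ ends, 126 bases apart and without overlap.

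Among the kinases, Syk, which docks on the phosphorylated adaptor (chr13:52583173-52648792), stood at 3.08 to 5.47 CPM in WT and 3.42 to 6.27 CPM in NLGF at week 24, with medians of 4.97 and 4.47 CPM. The sets overlapped, and the log2 fold change was -0.05 ± 0.113 (SE, edgeR adjusted p = 0.923) with a 95% interval of the fold from 0.829 to 1.13. The interval lies below the folds of the receptor and the adaptor. In proportion to its adaptor, Syk had 0.251 ± 0.0597 reads per read of Tyrobp in NLGF and 0.582 ± 0.118 in WT at week 24 (SD, n = 10 each), with no overlap (0.167 to 0.370 against 0.385 to 0.732). A ratio to Tyrobp falls for any gene that did not rise with it, so this gap restates the rise of Tyrobp and is not particular to Syk.

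Btk, a kinase of the Tec family that activates phospholipase C gamma (chrX:134542336-134583570), was low, at 0.420 to 1.34 CPM in WT and 0.641 to 1.66 CPM in NLGF at week 24, with medians of 0.836 and 1.19 CPM. The sets overlapped, with 2 of 10 NLGF libraries above all WT libraries. The log2 fold change of 0.45 ± 0.178 (SE) did not pass (edgeR adjusted p = 0.409), and its fold interval ran from 1.08 to 1.75. With 11 to 50 reads per library at that week, Btk had the widest error of the tested genes.

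Plcg2, the phospholipase that makes diacylglycerol and inositol trisphosphate (chr8:117498291-117635142), stood at 5.19 to 8.58 CPM in WT and 6.05 to 8.57 CPM in NLGF at week 24, with medians of 5.86 and 7.51 CPM. No NLGF library exceeded the highest WT library. The log2 fold change of 0.25 ± 0.0931 (SE) did not pass (edgeR adjusted p = 0.373), with a fold interval from 1.05 to 1.35.

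Pik3cg, the catalytic gamma subunit of phosphoinositide kinase (chr12:32173473-32208659), stood at 3.89 to 6.0 CPM in WT (median 4.77) and 5.60 to 7.62 CPM in NLGF (median 6.36) at week 24. Of the 10 NLGF libraries 7 lay above all WT libraries. The fold was 1.33 (95% interval 1.18 to 1.49), a log2 fold change of 0.41 ± 0.0878 (SE, edgeR adjusted p = 0.0204). The call held without each of the 20 libraries in turn (edgeR adjusted p up to 0.0486), but it was lost with the replicate block (0.0796), in females alone (0.785) and in males alone (0.614), where the log2 fold changes were 0.40 to 0.41. Pik3cg was also the gene with the largest difference at the earlier weeks, with log2 fold changes of 0.22 ± 0.102 at week 3 (edgeR adjusted p = 0.198) and 0.21 ± 0.101 at week 8 (edgeR adjusted p = 0.633), neither of which passed.

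Inpp5d, the inhibitory lipid phosphatase (chr1:87620312-87720507), ranged from 12.8 to 15.5 CPM in WT (median 14.0) and from 16.1 to 20.2 CPM in NLGF (median 17.9) at week 24, without overlap. The fold was 1.27 (95% interval 1.19 to 1.35), a log2 fold change of 0.34 ± 0.0473 (SE, edgeR adjusted p = 0.000129). The call was lost in females alone (0.30, edgeR adjusted p = 0.244) and in males alone (0.39, edgeR adjusted p = 0.0543), with 5 libraries per genotype in each. Its interval lies below those of Trem2 and Tyrobp. Reads of Trem2 per read of Inpp5d were 0.534 ± 0.0408 in WT and 0.951 ± 0.0949 in NLGF (SD, n = 10 each).

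Card9, the adaptor that links SYK to NF-kB with BCL10 and MALT1 (chr2:26352176-26360918), stood at 1.02 to 2.25 CPM in WT and 1.58 to 2.54 CPM in NLGF at week 24, with medians of 1.67 and 2.06 CPM. The sets overlapped, and the log2 fold change of 0.25 ± 0.128 (SE) did not pass (edgeR adjusted p = 0.580). An exon of Card9 overlaps an exon of the gene model Gm13562, and since the strand setting of the counting is not given, reads of the 2 cannot be told apart.

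Over the 8 tested genes the median log2 fold change at week 24 was 0.38, beside -0.000633 over all genes tested, and 7 of the 8 were above 0. In the authors' deposited table of genes called at week 24, 4 of the 156 genes listed belong to the 9: Tyrobp with a log2 fold change of 1.14, Trem2 with 1.15, Pik3cg with 0.38 and Inpp5d with 0.34. The authors' deposited table lists none of the 9 among its 2628 genes of week 3 or its 4 genes of week 8.

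**Figure D3:**
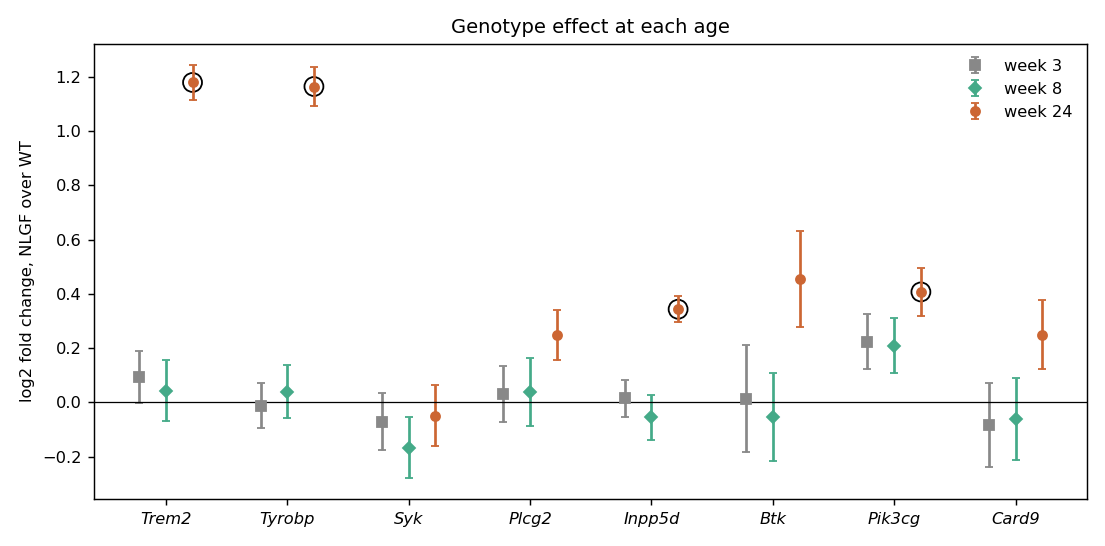
Log2 fold change of NLGF over WT at weeks 3, 8 and 24 for the 8 tested genes (points, with bars of 1 SE from the edgeR fit of each week, ringed where the adjusted p was under 0.05). Trem2 and Tyrobp lie at 1.18 and 1.16 at week 24, Pik3cg and Inpp5d at 0.41 and 0.34, and none of the genes is called at week 3 or 8.

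At week 3 none of the 8 tested genes was called in edgeR (1 at an unadjusted p under 0.05, none in DESeq2), where 3.78% of 16605 genes were called in either direction. The median of the 8 was 0.01 on the log2 scale. In the 3 NLGF libraries of usual depth Trem2 stood at 6.95 ± 1.23 CPM, beside 5.79 ± 0.573 CPM in the 7 deep ones and 5.75 ± 0.887 CPM in the 10 WT libraries (SD). Plcg2 stood at 9.14 ± 1.39 CPM in those 3 libraries, beside 6.35 ± 0.378 in the 7 deep ones and 7.0 ± 0.738 in WT. The 2 kinds of NLGF library did not overlap in Plcg2 (7.98 to 10.7 against 5.90 to 7.01 CPM), so its mean over the 10 averages different values. At week 8 none of the 8 was called in edgeR (0 at an unadjusted p under 0.05, none in DESeq2), and 0.0% of 16494 genes were called (1292 at an unadjusted p under 0.05, 1 gene in DESeq2). For Trem2 the 95% interval of the fold was 0.937 to 1.22 at week 3 and 0.883 to 1.20 at week 8, and for Tyrobp 0.886 to 1.11 and 0.899 to 1.18, which lie below their folds at week 24.

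The change of the genotype effect with age was tested over all 60 libraries. From week 8 to week 24 it rose by 1.13 ± 0.131 on the log2 scale in Trem2 (SE, edgeR adjusted p = 1.77e-08), by 1.12 ± 0.116 in Tyrobp (edgeR adjusted p = 5.58e-10) and by 0.40 ± 0.0946 in Inpp5d (edgeR adjusted p = 0.0318), against 0.31% of 17752 genes called in that direction. The Inpp5d call was lost without any 1 of 14 libraries (edgeR adjusted p up to 0.0748), WT W8 female 1 among them, and also with the replicate block (edgeR adjusted p = 0.103) and with no filter on low counts (edgeR adjusted p = 0.130). In Pik3cg the difference was 0.20 ± 0.132 and did not pass, so its effects at weeks 8 and 24 are not shown to differ. From week 3 to week 24 the effect rose by 1.09 ± 0.131 in Trem2 (edgeR adjusted p = 6.01e-08) and by 1.18 ± 0.115 in Tyrobp (edgeR adjusted p = 1.40e-10), against 0.901% of genes called in that direction, and Inpp5d did not pass (0.33 ± 0.0943, edgeR adjusted p = 0.0628). From week 3 to week 8 none of the 8 was called (edgeR, 0 at an unadjusted p under 0.05, none in DESeq2), where 0.18% of genes were called in either direction.

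Within WT mice none of the 8 genes was called between weeks 3 and 8 (edgeR, 0 at an unadjusted p under 0.05, none in DESeq2), where 7.14% of 16844 genes were called in either direction. Between weeks 8 and 24 none was called either (3 at an unadjusted p under 0.05, none in DESeq2), where 0.279% of genes were. The 3 were Trem2 (0.23 ± 0.106), Tyrobp (0.24 ± 0.0937) and Pik3cg (0.24 ± 0.107), log2 fold changes whose edgeR adjusted p lay between 0.323 and 0.394. Within NLGF mice, Syk was lower at week 8 than at week 3 by a log2 fold change of -0.32 ± 0.105 (SE, edgeR adjusted p = 0.0460), where 5.51% of 17391 genes were called lower. This Syk call was lost without any 1 of 14 libraries, with an adjusted p of up to 0.0884, and with no filter on low counts (0.0708), and 7 of the 10 week 3 libraries are the deep ones. Without those 7 libraries 2 genes were called lower, Syk and Plcg2 (-0.49, edgeR adjusted p = 0.0287). In that fit 2693 of all 18431 genes were called in either direction, and 3 NLGF libraries were left at week 3.

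Between weeks 8 and 24 in NLGF 5 of the 8 genes rose, where 1.36% of genes were called higher. The log2 fold changes were 1.37 ± 0.0819 for Trem2 (edgeR adjusted p = 2.16e-13), 1.36 ± 0.0731 for Tyrobp (1.74e-14), 0.40 ± 0.0524 for Inpp5d (5.98e-06), 0.44 ± 0.0857 for Pik3cg (0.00232) and 0.65 ± 0.171 for Btk (0.0381). The Btk call was lost without any 1 of 14 libraries of the 30, 8 of NLGF at week 24 and 6 of NLGF at week 8 (edgeR adjusted p up to 0.0854), with no filter on low counts (0.0715) and with the replicate block (0.0690). The week 24 NLGF libraries are those of the genotype comparison above, so the rise with age and the difference from WT share them.

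The effect of the genotype at week 24 was compared between the sexes. Trem2 of females was 17.1 ± 0.492 CPM in NLGF beside 7.60 ± 0.469 CPM in WT, and that of males 16.8 ± 2.87 beside 7.38 ± 0.558 CPM (SD, n = 5 each). Tyrobp was 19.3 ± 1.38 and 8.45 ± 1.20 CPM in females and 17.8 ± 2.08 and 8.12 ± 0.920 CPM in males. The sexes gave similar means, with a wider spread in NLGF males for Trem2 (14.2 to 20.9 CPM, against 16.4 to 17.7 CPM in NLGF females). None of the 8 genes was called for a difference between the sexes (edgeR, 0 at an unadjusted p under 0.05, none in DESeq2). Of all 16508 genes 0.0% were called (486 at an unadjusted p under 0.05, none in DESeq2). The genotype fold of males over that of females had a 95% interval of 0.847 to 1.22 for Trem2 and 0.794 to 1.17 for Tyrobp.

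Because the 9 genes are expressed in microglia, their reads were also set against those of the 8 microglial markers in the same library. Per 100 marker reads Trem2 had 10.4 ± 0.888 reads in NLGF and 6.18 ± 0.648 in WT at week 24, and the sets did not overlap (9.46 to 12.2 against 4.95 to 7.22). Tyrobp had 11.4 ± 0.772 and 6.80 ± 0.714, also without overlap (10.1 to 12.7 against 6.06 to 8.59). Inpp5d had 11.0 ± 0.747 reads in NLGF and 11.6 ± 0.881 in WT, a difference smaller than its spread.

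In the fit in which the summed marker counts replace the library size, Trem2 was higher in NLGF by 0.76 ± 0.0710 on the log2 scale (SE, edgeR adjusted p = 3.42e-07) and Tyrobp by 0.75 ± 0.0668 (edgeR adjusted p = 1.77e-07), where 0.394% of 16508 genes were called higher. The 8 markers did not rise alike: their log2 fold changes in the main comparison ran from 0.06 (P2ry13) to 0.79 (Irf8). In the marker fit 2 of the 8 were themselves called, so the values of Trem2 and Tyrobp hold relative to this set of markers only. Syk was lower by a log2 fold change of -0.46 ± 0.125 (edgeR adjusted p = 0.00197), but 77.5% of all genes were called lower in that fit, whose median over all genes was -0.42, so that this share is the background for Syk. The remaining 5 tested genes did not pass: Plcg2 had -0.17 ± 0.0783 (edgeR adjusted p = 0.0516), Card9 -0.16 ± 0.139, Inpp5d -0.07 ± 0.0502, Pik3cg -0.02 ± 0.0986 and Btk 0.04 ± 0.187. Plcg2 passed as lower under the stricter filter (edgeR adjusted p = 0.0458) and without any 1 of 7 libraries, NLGF female 3, NLGF male 3, 4 or 5, WT female 3 and WT male 2 or 4 (lowest edgeR adjusted p = 0.0308). On the TMM-scaled library size, the scale of the main comparison, Inpp5d (0.34) and Pik3cg (0.41) passed as higher and Syk (-0.05) did not pass.

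**Figure D4:**
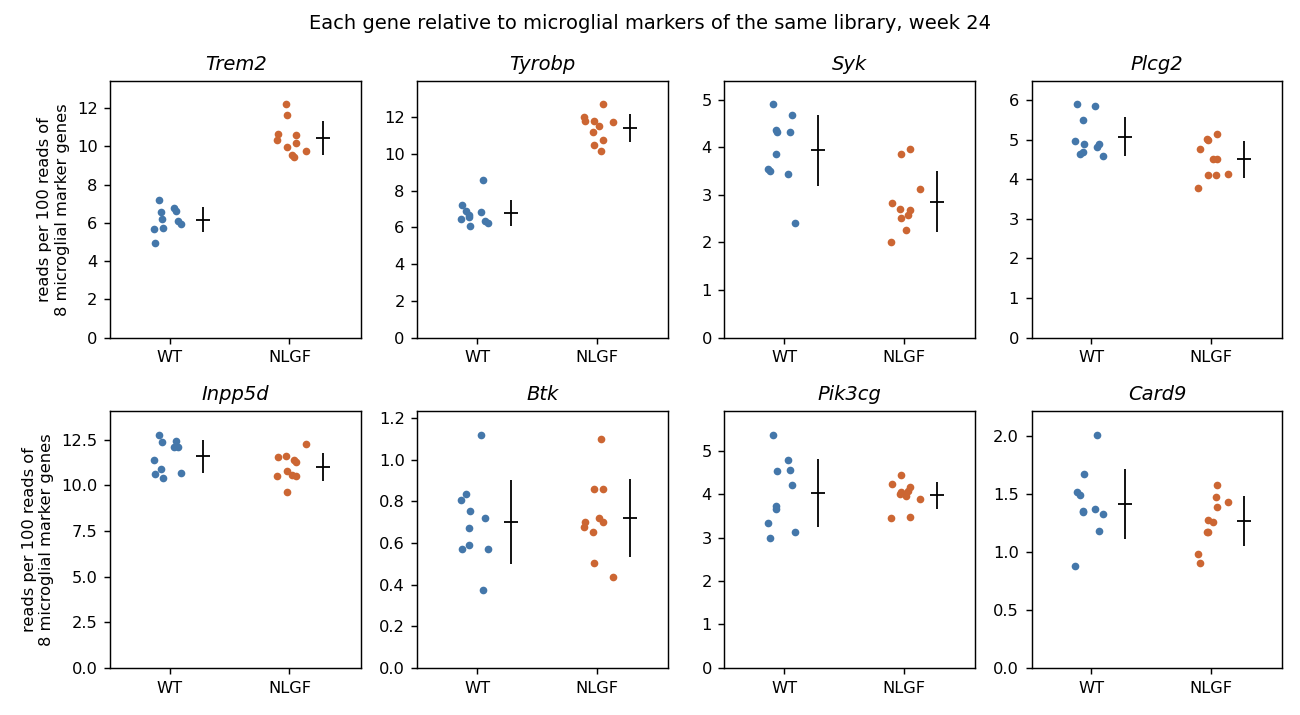
Reads of each tested gene per 100 reads of the 8 microglial markers in the same library at week 24 (points, linear axes from 0, mean and SD beside them, 10 libraries per genotype). Trem2 and Tyrobp of NLGF lie above all WT libraries, Inpp5d overlaps between the genotypes (means 11.0 in NLGF and 11.6 in WT), and Syk lies lower in most NLGF libraries with overlap.

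Markers of neutrophils, T and NK cells and B cells were near 0 in both genotypes at week 24. All 6 neutrophil markers (S100a8, S100a9, Ngp, Camp, Ly6g and Retnlg) had set means under 0.1 CPM, with summed levels of 0.0403 to 0.300 CPM in WT and 0 to 0.716 CPM in NLGF. Of the 8 markers of T and NK cells, 8 in WT and 7 in NLGF were under 0.1 CPM, with sums of 0 to 0.411 and 0.0328 to 0.666 CPM. Of 4 B cell markers 3 were under 0.1 CPM in each genotype. The 5 monocyte markers summed to 23.6 ± 2.37 CPM in WT and 23.5 ± 2.70 CPM in NLGF (SD), nearly all of it from Vcan (23.4 ± 2.35 and 23.1 ± 2.75 CPM), which oligodendrocyte progenitors also express and which was not called (edgeR adjusted p = 0.958). Ccr2 had means of 0.113 CPM in WT and 0.147 CPM in NLGF, and Ly6c2, Plac8 and Chil3 were under 0.1 CPM in both genotypes. The 7 markers of border macrophages, which also express Tyrobp, summed to 8.66 ± 2.45 CPM in WT and 8.18 ± 1.71 CPM in NLGF (SD), and none of the 5 that passed the filter was called in edgeR (0 at an unadjusted p under 0.05).

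Divided by the length of the principal transcript, the order of levels in WT at week 24 was Tyrobp (14.7 ± 1.81 CPM per kb), Trem2 (6.89 ± 0.459), Inpp5d (2.85 ± 0.177), Plcg2 (1.45 ± 0.232), Syk (0.889 ± 0.143), Card9 (0.885 ± 0.192), Pik3cg (0.830 ± 0.123), Btk (0.336 ± 0.0910) and Hcst (0.180 ± 0.137; SD, n = 10). The place of Trem2 depends on the length used. Divided by the union of all annotated exons, Tyrobp was still the highest (12.4 ± 1.53 CPM per kb), but Inpp5d (1.85 ± 0.115) stood above Trem2 (1.52 ± 0.101), and Plcg2 (1.45 ± 0.232) differed from Trem2 by less than its spread. By the principal transcript, Syk, Card9 and Pik3cg are neighbours whose levels differ by less than their spread. The genes differ in how much of their transcripts ribosome-depleted libraries sample, so this order is approximate.

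Other genes of the pathway were counted by role at week 24, from lists chosen with earlier results of these data known, and 0.8% of all 16508 genes were called higher at that week. Of 17 other genes on the list of adaptor-coupled receptors only 4 had enough reads to test, and 2 rose: Siglech, a lectin of microglia (log2 fold change 0.66 ± 0.0858, edgeR adjusted p = 5.47e-05), and Cd300c2 (0.68 ± 0.130, edgeR adjusted p = 0.00611). Treml2 (1.01 ± 0.309, edgeR adjusted p = 0.205) and Clec5a (0.36 ± 0.162, edgeR adjusted p = 0.511) did not pass. Whether each listed receptor pairs with an adaptor was not tested. The list had a median of 0.67, beside -0.000633 over all genes. Of 3 tested genes of the Fc receptors that signal through an activation motif, 2 rose, the shared chain Fcer1g (0.69 ± 0.0917) and Fcgr3 (0.69 ± 0.0747). Among 5 tested ligands and sheddases of TREM2, including Apoe (0.03 ± 0.0687) and Adam10 (0.00859 ± 0.0456), none was called (edgeR, 0 at an unadjusted p under 0.05).

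Of 10 tested kinases of the Src and Tec families and Zap70, 1 rose, Lyn (0.41 ± 0.0713, edgeR adjusted p = 0.00245), which phosphorylates activation motifs. Of 15 tested adaptors and exchange factors 4 rose: the adaptors Fyb (0.55 ± 0.0722) and Lat2 (0.88 ± 0.154), and Dock2 (0.52 ± 0.0915) and Vav1 (0.45 ± 0.0825), which activate Rac. Over all genes 0.8% were called higher, so that single calls in short lists are given as values only. The 14 tested genes of the phosphoinositide kinase, phospholipase and AKT group had 0 called (edgeR, 3 at an unadjusted p under 0.05) and a median of -0.05. The 11 of the CARD9 complex and NF-kB had 0 called (edgeR, 0 at an unadjusted p under 0.05) and a median of 0.01.

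The lists of inhibitory receptors and of phosphatases, ligases and docking inhibitors also held genes that rose, beside the 0.8% of all genes called higher. Of 7 tested genes on the list of inhibitory receptors 4 were higher: Fcgr2b (0.95 ± 0.115), the inhibitory Fc receptor, Siglecf (1.15 ± 0.175), Lair1 (0.45 ± 0.0931) and Cd33 (0.40 ± 0.0892). The list goes by name, and whether each product inhibits in mouse microglia was not tested. Of 13 tested phosphatases, ligases and docking inhibitors 2 were higher, Ptpn6 (0.74 ± 0.0803), which encodes SHP1, and Ptprc (0.89 ± 0.106), which encodes CD45. No gene of these lists was called lower at week 24. Neither tested gene of the Ms4a cluster, Ms4a6b (0.22 ± 0.286) and Ms4a6d (0.18 ± 0.234), was called in edgeR (0 at an unadjusted p under 0.05). At week 3, 1 gene of these lists was called, Dock2, where 3.78% of 16605 genes were called in either direction. Dock2 was lower in NLGF by a log2 fold change of -0.35 ± 0.0866 (SE, edgeR adjusted p = 0.0324) in the comparison that holds the 7 deep libraries. Without those libraries 0 of 17187 genes were called at week 3. The week 3 value of Dock2 was chosen for naming after it was seen. At week 8 none of the lists had a called gene (edgeR, 5 genes at an unadjusted p under 0.05), where 0.0% of 16494 genes were called.

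**Figure D5:**
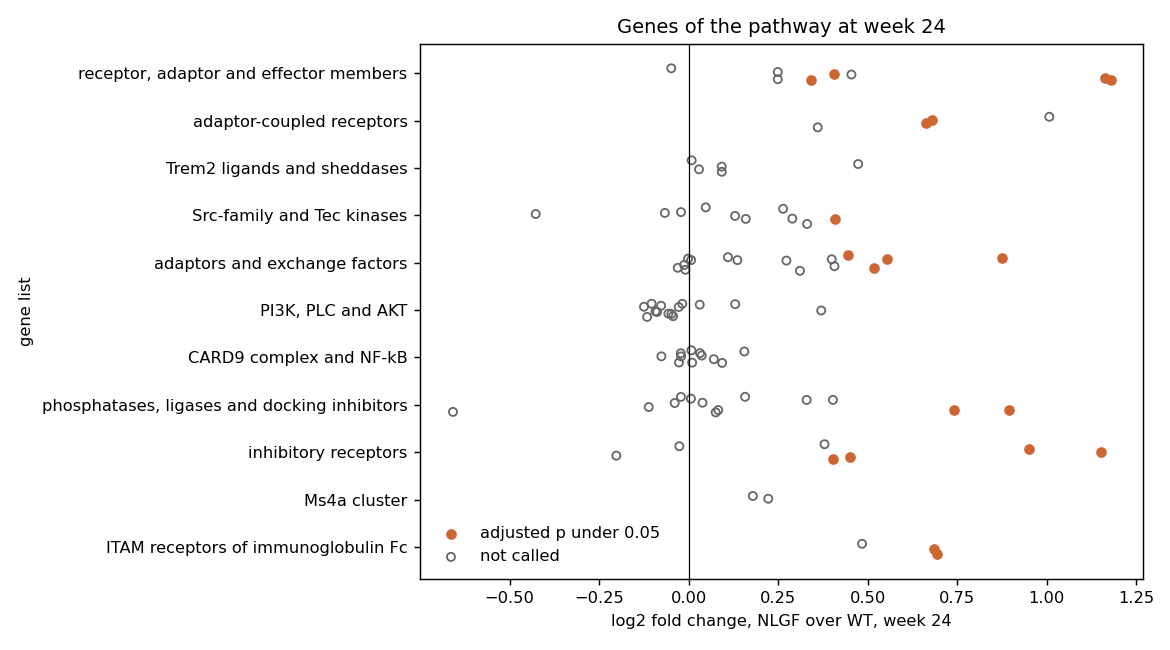
Log2 fold change of NLGF over WT at week 24 (edgeR) for each tested gene, with the 8 tested members in the top row and 1 row per pathway list below, filled where the adjusted p was under 0.05. The rows of receptors and inhibitory receptors have medians of 0.67 and 0.40, and the rows of the phosphoinositide kinase group and of NF-kB lie around 0.

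The genes whose log2 level over the 60 libraries was most like that of Trem2, among 13304 genes whose mean reached 1 CPM, were C1qb (r = 0.92), C1qa (r = 0.91), Tyrobp (r = 0.91), Cst7 (r = 0.89) and C1qc (r = 0.88). Those most like Tyrobp were C1qb (r = 0.92), Cst7 (r = 0.91), Trem2 (r = 0.91), Ctss (r = 0.90) and Fcgr3 (r = 0.89). These values rest largely on the 10 NLGF libraries at week 24: over the other 50 libraries the r of Trem2 with Tyrobp was 0.34, with C1qa 0.64 and with Cst7 0.19. They are given as descriptions of libraries that share genotype, age and sex groups.

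With the mean of each of the 12 groups removed, the genes most like Trem2 were Csf1r (r = 0.67), March2 (r = 0.63), Epor (r = 0.61), Pcdhga12 (r = 0.61) and Tst (r = 0.61), and those most like Tyrobp were Pigyl, Rpl12, Larp7, Nabp2 and Alox5ap (r = 0.52 each). The lists have no gene in common. Spearman rank correlations of the same genes were lower, 0.45 to 0.58 for Trem2 and 0.43 to 0.50 for Tyrobp. The r values named are the highest out of 13304 genes, and how high an r such a pick gives by chance was not tested. The 28 pairs among the 8 tested genes had r between -0.20 and 0.50 within groups, the highest for Trem2 with Inpp5d, with a median of 0.09 over these pairs, beside a median of 0.32 over the levels with the groups left in. WT W8 female 1 had the highest Trem2 (8.77 CPM) and Inpp5d (21.5 CPM) of its set, and the r of this pair without it was not tested.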

How the data were processed

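The authors deposited raw counts per gene symbol for 60 libraries. The submitters' processing notes name mm10 as the build and list STAR, FastQC, DESeq2 and edgeR without versions. How reads were assigned to genes, and with which annotation or strand, is not given in the sources used here. The authors' deposited table of called genes holds, per the file headers, a mean of normalized counts (a signal), a log2 fold change with SE, and a p-value with its adjusted value.

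From the counts, R 4.3.3 and edgeR 4.0.16 were used: filterByExpr (minimum count 10), TMM, robust quasi-likelihood F-test, 2-sided, Benjamini-Hochberg over all genes tested, threshold 0.05. Genotypes were compared at each week with sex as covariate, between weeks over all 60 libraries, between weeks within each genotype, and between sexes at week 24. In a further fit the summed counts of 8 microglial markers replaced the library size. That fit was planned with another marker list, which holds an item not reported here, so the list planned as its alternative was used instead, after results with both were known. Intervals are the log2 fold change ± 1.96 SE. Levels are TMM-scaled CPM. Lengths and positions are those of GENCODE vM21. The scripts were tested on simulated data. The named genes are the 9 members, up to 4 called genes of each pathway list, and the 5 most like Trem2 and Tyrobp. The members and lists were chosen with earlier results of these data known. Alternatives were RLE scaling, DESeq2 1.42.0, other filters, a block for sex and replicate number, no sex term, each sex alone, all libraries in 1 fit, each library left out and no deep libraries. No library was left out of the main values.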

Additional observations from a re-analysis of the deposited data

Results flagged for a closer look

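In 9 of 108 groups of 5 libraries (1 gene in 1 genotype, week and sex), the most extreme library lay farther from its nearest neighbour than Dixon's 95% critical value of 0.71 allows, where chance gives about 1 in 20. Tyrobp stood at 10.5 CPM in WT W24 female 4, against 7.46 to 8.18 CPM in the other 4. Plcg2 stood at 10.8 CPM in WT W8 female 1 (others 5.61 to 6.32 CPM) and Inpp5d at 21.5 CPM in the same library (others 11.9 to 14.5 CPM). Plcg2 also stood at 10.7 CPM in NLGF W3 male 1 (others 6.01 to 7.01 CPM), 1 of the 3 NLGF libraries of usual depth at that week. Syk was low in NLGF W8 male 4, at 3.26 CPM (others 4.18 to 4.51 CPM). Btk was low in WT W24 male 5, at 0.420 CPM (others 0.836 to 0.941 CPM), and in WT W8 female 5, at 0.566 CPM (others 0.780 to 0.851 CPM). Card9 stood at 1.82 CPM in WT W8 male 5 (others 1.41 to 1.53 CPM), and Hcst, near its counting limit, at 0.217 CPM in NLGF W3 male 3 (others 0.0762 to 0.109 CPM).

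The genotype effect differed between ages by the test of the difference itself in 5 cases. From week 8 to week 24 the difference on the log2 scale was 1.13 for Trem2, 1.12 for Tyrobp and 0.40 for Inpp5d, and from week 3 to week 24 it was 1.09 for Trem2 and 1.18 for Tyrobp (edgeR). Causes were not tested.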

How the results depend on the processing

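Of 77 counts of members called under an alternative other than a left-out library, 73 stayed within 1.5 times the main count. This bound is loose: it also holds for 3 against 4, for 2 against 3 and for counts of 0 in both fits. At week 24, 2 members were called in females alone and 2 in males alone, Trem2 and Tyrobp, against 4 over both sexes. The count for NLGF, week 8 over week 3, was 0 with no filter on low counts and 2 without the 7 deep libraries, and 0 to 1 with 1 library left out. Over all genes tested, calls between the genotypes numbered 0 (without the 7 deep libraries) to 1904 (all 60 samples in 1 fit) at week 3 against 628, 0 to 1 at week 8 against 0, and 37 (males alone) to 224 (DESeq2) at week 24 against 145. Inpp5d, week 24 minus week 3, passed in DESeq2 (adjusted p = 0.0284) and under the stricter filter (0.0480). Causes were not tested.

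The r of deviations between same-numbered libraries of a week and sex was -0.149 to 0.395 over 30 pairs (median 0.0579), with 12 over 0.1. Libraries of unlike number were not compared, so these values do not settle whether the libraries pair. With the replicate block, 3 members were called at week 24 (edgeR adjusted p of Pik3cg 0.0796), 2 for week 24 minus week 8 (Inpp5d 0.103) and 4 for NLGF, week 24 over week 8 (Btk 0.0690), and no other member's call changed.

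The values that turned sign were all of genes that did not pass in the main fit, and 2 of them passed under the alternative, Inpp5d and Pik3cg on the TMM-scaled library size. At week 3 in males alone the log2 values were 0.0493 for Tyrobp and -0.0853 for Inpp5d. Btk was -0.00370 with no sex term and -0.30 in females alone. Without the 7 deep libraries the week 3 effect was 0.0948 for Tyrobp, 0.12 for Syk, -0.10 for Btk and 0.30 for Card9. At week 8 Trem2 was -0.0570 and Plcg2 -0.00149 in females alone, and Card9 was 0.16 in males alone. For week 24 minus week 3 without the deep libraries, Syk was -0.16, Plcg2 -0.15 and Card9 -0.0519. For week 8 minus week 3 without them, Tyrobp was -0.0556, Plcg2 -0.37, Btk 0.0470, Pik3cg 0.0907 and Card9 -0.36, and Pik3cg was 0.00280 under the stricter filter. In WT, week 24 over week 8, Inpp5d was 0.000760 with no filter, 0.00439 under the stricter filter and 0.00769 with the replicate block. In NLGF, week 8 over week 3, without the deep libraries Trem2 was -0.0840, Tyrobp -0.00340 and Pik3cg 0.00750. Relative to markers, Plcg2 was 0.25, Inpp5d 0.34, Pik3cg 0.41 and Card9 0.25 on the TMM-scaled library size.

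With 1 library left out, week 3 values ranged from -0.0437 to 0.0250 for Tyrobp, -0.0465 to 0.0605 for Plcg2, -0.00799 to 0.0396 for Inpp5d and -0.0482 to 0.0941 for Btk. At week 8 they ranged from -0.000738 to 0.10 for Trem2, -0.00786 to 0.0983 for Tyrobp, -0.0300 to 0.14 for Plcg2, -0.0802 to 0.0179 for Inpp5d and -0.11 to 0.0105 for Card9. Week 24 minus week 3 was -0.0336 to 0.0664 for Syk. Week 8 minus week 3 was -0.0954 to 0.0187 for Trem2, -0.0603 to 0.11 for Plcg2, -0.0997 to 0.0125 for Inpp5d, -0.0548 to 0.0378 for Pik3cg and -0.0323 to 0.13 for Card9. In WT, week 8 over week 3 was -0.0119 to 0.0908 for Tyrobp and -0.0943 to 0.0227 for Inpp5d, and week 24 over week 8 was -0.10 to 0.0140 for Syk, -0.0846 to 0.0726 for Plcg2, -0.0402 to 0.0832 for Inpp5d and -0.0504 to 0.0867 for Card9. In NLGF, week 8 over week 3 was -0.0804 to 0.0629 for Card9. Male minus female was -0.0685 to 0.0757 for Trem2, -0.14 to 0.00828 for Tyrobp, -0.0566 to 0.18 for Syk and -0.0605 to 0.0895 for Pik3cg, and relative to markers Btk was -0.0493 to 0.15 and Pik3cg -0.0560 to 0.0294. Depth limits Hcst and Btk, the members with the fewest reads.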
